A study of Mus musculus with 661 samples.

Results

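Oxidative phosphorylation passes electrons from NADH and succinate along protein complexes I to IV of the inner mitochondrial membrane to oxygen, and complex V, the ATP synthase, uses the proton gradient so formed to make ATP. Most subunits are encoded in the nucleus, while a small core is encoded in the mitochondrial genome. Marrow stromal and skeletal cells use both this pathway and glycolysis, and several subunits of complex IV come in alternative isoforms that differ between tissues or with oxygen supply. The genes described here are the nuclear-encoded subunits, taken by symbol: names beginning with Ndufa, Ndufb, Ndufc, Ndufs or Ndufv and a digit, the Sdh genes, names beginning with Uqcr, with Cox and a digit from 4 to 8, and with Atp5, without pseudogene symbols ending in -ps. The rule found 84 genes among 45771 nuclear genes. Complex I had 35, complex II 4, complex III 8, complex IV 20 (Ndufa4 and Ndufa4l2 included) and complex V 17. The symbol rule also takes Cox7a2l, a factor of respiratory supercomplexes, and Atp5s and Atp5sl, which are not core ATP synthase subunits, and it misses Ndufab1, Cyc1 and Cycs, which are given with the other genes of the pathway.

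The data were single-cell transcriptomes of bone marrow niche cells from young and old wild-type C57BL/6 mice without treatment, sorted into wells and sequenced without molecular identifiers. In the central marrow, MSC-L were LepR-positive stromal cells and SEC were sinusoidal endothelial cells with low Sca-1. In the endosteum, MSC-S were Sca-1-positive stromal cells, mOPr and OPr were osteoprogenitors with and without PDGFRα, and AEC were arteriolar endothelial cells with high Sca-1. There were 661 cells. Young and old groups held 53 and 58 cells for MSC-L, 59 and 59 for MSC-S, 44 and 29 for OPr, 26 and 26 for mOPr, 84 and 82 for AEC, and 70 and 71 for SEC. Cells of each age came from several mice, which the labels do not tell apart, so each age of a population was 1 sample, no difference below has a replicate check, and no test was made.

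Median nuclear counts per cell were 463538 in young and 352562 in old MSC-L, 602470 and 693396 in MSC-S, 686077 and 775426 in OPr, 516984 and 444242 in mOPr, 409992 and 414261 in AEC, and 314844 and 302201 in SEC. Library numbers fell into 3 separate ranges, called ranges 1, 2 and 3, with 170, 303 and 188 cells. All SEC were in range 3, all mesenchymal cells in ranges 1 and 2, and AEC in all 3. Each group was further divided into runs of consecutive library numbers. The values of runs of at least 5 cells, or the standard deviation between them, are given beside many of the results on members as the nearest measure of error. Intervals cover counting error only.

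Markers of other identities and the mix of clusters differed between the ages in several populations. Deposited cluster labels were pooled into identities (M1 and M2 for MSC-L, M3 to M5 for OPr, M6 to M16 for MSC-S, with M3 to M16 taken for mOPr). By these labels, 36 of 44 young OPr but 19 of 29 old OPr, and 24 of 26 young mOPr but 12 of 26 old mOPr, were in clusters of their own identity. M1 and M2 held 7 and 3 of the old OPr and 4 and 10 of the old mOPr. The mOPr cells in clusters of their own identity came from different clusters at each age, since the 12 old cells were all in M5, while of the 24 young cells 7 were in M5, 7 in M15 and 4 in M12. The 8 MSC-L markers summed to 6607 CPM (counts per 1e+06 nuclear counts) in young and 26476 CPM in old OPr, and to 1245 CPM in young and 23448 CPM in old mOPr, with Cxcl12 the most abundant. The 11 osteolineage markers summed to 32766 CPM in young OPr, led by Col2a1 at 23589 CPM, and to 4696 CPM in old OPr. In old OPr, 8 of 29 cells carried at least 7 of 15 hematopoietic markers at 10 CPM or more, and the list summed to 10950 CPM there (S100a9 4041 CPM, 14 of 15 genes at 1 CPM or more) against 8.01 CPM in young OPr. Erythroid markers summed to 5.49 CPM in young OPr (Alas2 alone) and 227 CPM in old OPr (led by Hbb-bs). By range they were at 7.28 and 1.74 CPM in range 1 and at 4.11 and 378 CPM in range 2. Endothelial markers summed to between 8989 and 10676 CPM in AEC and SEC and to at most 122 CPM in mesenchymal groups, MSC-L markers to 66878 and 52866 CPM in MSC-L, and MSC-S markers to 5100 and 7380 CPM in MSC-S.

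In MSC-L, M2 held 12 of 53 young and 23 of 58 old cells. Osteolineage markers summed to 11588 CPM in young MSC-L (led by Ibsp) and 7520 CPM in old MSC-L (led by Spp1), with log2 ratios of −0.02 in range 1 and −0.96 in range 2. Hematopoietic markers summed to 25.8 CPM in young MSC-L (led by Coro1a, with S100a8 and Csf3r among 6 genes at 0) and 114 CPM in old MSC-L (led by Lyz2), but to 7.57 and 264 CPM in range 1 and 35.996 and 32.9 CPM in range 2. Erythroid markers to 26.4 and 100.01 CPM (led by Hbb-bs), and MSC-S markers to 6.27 CPM (led by Igfbp6) and 72.8 CPM (led by Mfap5). In MSC-S, 9 of 10 tested osteolineage markers were lower in old cells past the fold described below, with sums of 3669 and 1467 CPM led by Col1a1, but the sums were 1933 and 3307 CPM in range 1 and 4614 and 848 CPM in range 2. M15 held 5 young and no old MSC-S, and M9 10 old and no young MSC-S.

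In SEC, 59 of 70 young but 44 of 71 old cells were in the main sinusoidal cluster, E7. Sinusoidal markers summed to 19927.5 and 14995 CPM in young and old SEC (Stab2 the most abundant, Lyve1 at 0 in old) against 2058 and 1216 CPM in AEC. Of 8 arteriolar markers, 7 were higher in old SEC past the fold described below and 1 lower (median log2 ratio 2.34), although the list, led by Cxcl12, summed to 5928 and 5135 CPM. The MSC-S markers summed to 367 CPM in young and 1280 CPM in old SEC, led by Ly6a, and the hematopoietic markers to 81.8 CPM (led by Fcer1g, with Camp at 0) and 326 CPM (led by Lyz2). The MSC-L markers summed to 7766 and 4746 CPM (led by Cxcl12), the osteolineage markers to 1229 CPM (led by Ibsp) and 499.9 CPM (led by Spp1), with Bglap and Bglap2 at 0 at both ages, and the erythroid markers to 60.9 CPM (led by Hbb-bs) and 13.5 CPM (led by Hbb-bt). In AEC, 59.5% of young and 74.4% of old cells were in the arteriolar clusters E3 and E4, and the MSC-S markers, led by Ly6a, which encodes Sca-1, summed to 3839 and 4274 CPM. Of 8 pericyte markers, 6 were lower and 1 higher in old AEC, with sums of 1827 and 1438 CPM and log2 ratios of −3.13, 0.54 and 0.14 in ranges 1, 2 and 3. The 10 mesenchymal markers summed to 2566 and 3204 CPM (−1.74, 1.07 and 0.93 by range). The MSC-L markers, 5 lower and 1 higher, summed to 3392 and 3589 CPM (−1.62, 0.71 and 0.42). The part of these cells in the age results was not tested beyond the values without them that are given for some results.

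Every member had at least 1 count, and 4 members (Cox6a2, Cox7b2, Cox8b and Cox8c) were detected in fewer than 5 cells. These and Atp5g2 passed the filter below in no population, and Cox7a1, Cox6b2, Atp5s, Cox4i2 and Ndufa4l2 failed it in some. Summed over all cells, the 10 most abundant were Atp5b (629 CPM) and Atp5a1 (516 CPM), the catalytic β and structural α subunits of the ATP synthase head, Cox4i1 (463 CPM), the common form of a regulatory complex IV subunit, Sdha (215 CPM), the flavoprotein that oxidises succinate, the complex III core protein Uqcrc1 (202 CPM), Atp5d (154 CPM), the NADH-binding complex I subunit Ndufv1 (127 CPM), Cox6a1 (127 CPM), Atp5c1 (123 CPM) and Atp5g3 (119 CPM). Per kilobase of exon (union of annotated exons, 83 members with a length), the order was led by Cox4i1 at 298 CPM per kb, Cox6a1 at 180, Atp5a1 at 165, Atp5b at 148 and Cox8a at 140 CPM per kb. The median over members was 30.3 CPM per kb in complex I, 45.02 in complex II, 40.97 in complex III, 16.7 in complex IV and 21.9 in complex V. Members were short genes, with a median exon length of 1550 bases against 4008 bases for all genes of at least 1 CPM. Levels of short genes and of genes with processed copies elsewhere in the genome, among them Atp5l, Atp5k and Atp5g2, are uncertain, since libraries were size-selected and reads shared between copies could be lost.

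Summed over members, the young groups ranged from 5106 CPM in OPr to 6633 CPM in AEC, and the old groups from 5303 CPM in OPr to 6355 CPM in AEC. Single young cells ranged widely, from 73.7 to 15953 CPM around a median of 4534 CPM in OPr and from 3286 to 9325 CPM around 6577 CPM in SEC. Young SEC and AEC were close, at 6587 and 6633 CPM, and within range 3, where both were present, young AEC stood at 6788 CPM and old AEC at 5607 CPM against 6195 CPM in old SEC. The log2 ratio of old SEC over old AEC was thus −0.04 over all ranges and 0.14 within range 3. Mitochondrially encoded subunits (13 genes) made up 0.603% of all counts in young MSC-L (95% interval 0.600 to 0.606%) and 0.709% in old MSC-L (0.705 to 0.712%), where the nuclear members made up 0.614% and 0.529%. In SEC both kinds were lower in old cells, at 0.493% and 0.456% for the mitochondrially encoded and 0.650% and 0.611% for the nuclear members.

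In MSC-L, members summed to 6228 CPM in young cells (95% counting interval 6196 to 6260; runs 6054, 5790 and 6677 CPM) and to 5394 CPM in old cells (5362 to 5427; runs 5664, 5469 and 4954 CPM). Every old run was below every young run. The log2 ratio of old over young was −0.21 (−0.22 to −0.20), against a standard deviation between runs of 0.10. It was −0.10 within range 1 and −0.27 within range 2, so in range 1 alone it was no larger than that spread. By deposited cluster, members summed to 6169 CPM in young and 5317 CPM in old cells of M1 (log2 ratio −0.21) and to 6069 and 4973 CPM in M2 (−0.29). Mitochondrial counts made up 1.46% of the counts of young and 1.97% of those of old MSC-L. Old MSC-L had fewer counts per cell, and the log2 ratio was −0.32 once cells had been thinned to 100000 counts. Over all populations, 7 cells had fewer nuclear counts than that. They were left out of the thinned values and kept in the main values. The old MSC-L cell with the highest level, with 96767 nuclear counts, was among them. Without thinning, the log2 ratio in MSC-L was −0.21 when the top cell per age was left out. The old cell with the highest level, at 26404 CPM, owed 11874 CPM to Uqcrc1.

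SEC was the other population in which 3 runs of each age did not overlap. Members summed to 6587 CPM in young SEC (runs 6494, 6596 and 6678 CPM) and to 6195 CPM in old SEC (runs 5943, 6219 and 6446 CPM), with a log2 ratio of −0.09 (−0.10 to −0.08) against a run standard deviation of 0.04. Among cells of the main sinusoidal cluster alone, which held 59 of 70 young and 44 of 71 old cells, the log2 ratio was −0.04, while it was −0.18 with edgeR TMM factors and −0.17 with median-of-ratios factors.

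In MSC-S, AEC and OPr the runs of the ages overlapped. Young MSC-S stood at 6001 CPM (runs 5904, 6282 and 5801 CPM) and old MSC-S at 5607 CPM (runs 5661, 5060 and 6083 CPM). Young AEC stood at 6633 CPM (runs 7667, 5968, 6043 and 6788 CPM) and old AEC at 6355 CPM (runs 6865, 6541, 6232 and 5607 CPM). The log2 ratio in AEC was −0.16 in range 1, 0.09 in range 2 and −0.28 in range 3. Young OPr stood at 5106 CPM (runs 5067, 4631 and 5921 CPM) and old OPr at 5303 CPM (runs 5126 and 3406 CPM and a run of 3 cells at 14617 CPM). The log2 ratio in OPr was 0.05, but −0.29 without the run of 3 cells, 0.48 without the old run of 16 cells, −0.17 without the top cell per age, and −0.10 with TMM and with median-of-ratios factors. It was 0.25 without the cells carrying hematopoietic markers and 0.11 among cells in clusters of their own identity. Young mOPr stood at 5785 CPM (runs 6308 and 6226 CPM and a run of 3 cells at 3403 CPM) and old mOPr at 5463 CPM (runs 5404 and 5500 CPM). The runs of at least 5 cells did not overlap in mOPr. The log2 ratio of −0.08 became −0.22 within range 1, 0.05 within range 2, 0.04 among cells in clusters of their own identity, −0.0477 within M5, −0.21 with TMM factors, −0.25 with median-of-ratios factors and −0.20 without the run of 3 cells.

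**Figure D1:**
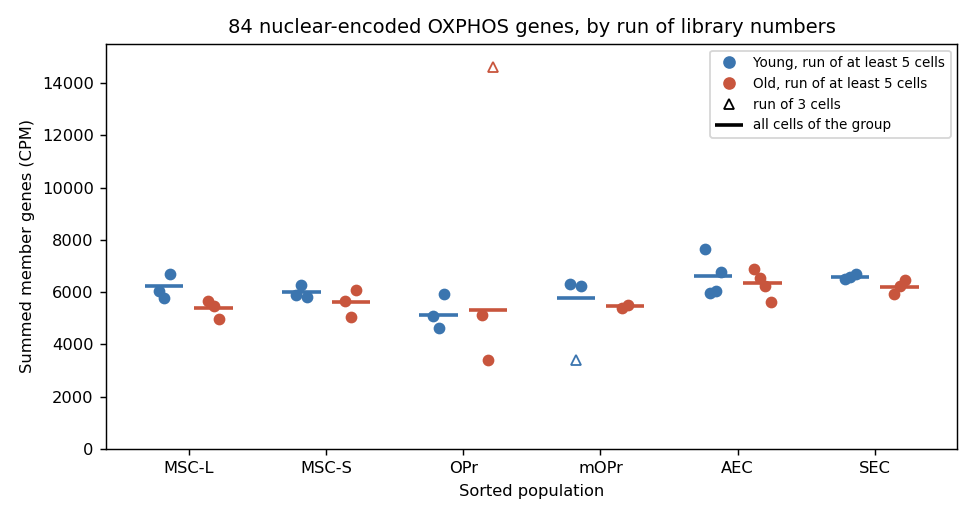
Summed level of the 84 member genes (CPM) in young (blue) and old (red) cells of the 6 populations; filled circles are runs of library numbers with at least 5 cells, open triangles runs of 3 cells, and bars all cells of the group. In MSC-L the old runs (4954 to 5664 CPM) lie below the young runs (5790 to 6677 CPM), and a run of 3 old OPr cells stands alone at 14617 CPM.

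Gene by gene, members were set beside all genes that passed the same filter (100 counts over both ages in at least 5 cells), as log2 ratios of CPM plus 1, with a ratio of at least 0.5 in size called past the fold. In MSC-L, 78 members passed, with a median of −0.26 where all 13143 genes had a median of 0.01. The median over members was −0.0843 in range 1, −0.35 in range 2 and −0.0832 without the third young run. Of these members 4 were higher and 19 lower in old cells past the fold, while 27.6% of all genes were higher and 25.3% lower. The share of members that were lower (24.4%) was near the background, and the share that were higher (5.13%) was below it. Counting genes that also moved the same way in both ranges, 4 members were higher (background 19.4%) and 18 lower (background 17.8%).

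MSC-S members had a median of −0.12 against −0.06 for all genes, with 3 of 78 higher (background 19.8%) and 6 lower (24.2%), and 3 higher (13.7%) and 5 lower (16.6%) in both ranges. AEC members had a median of −0.01 against −0.03, with 4 of 77 higher (21.1%) and 7 lower (24.6%), and 2 higher (8.23%) and 2 lower (10.6%) in all 3 ranges. SEC members had a median of −0.14 against 0.05 for all genes, with 4 of 75 higher (26.3%) and 8 lower (18.9%). In these populations fewer members than genes at large were past the fold in either direction. The background was not matched on level.

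The osteoprogenitors had more members past the fold, as they had more genes of any kind. In OPr, 18 of 78 members were higher (background 38.4%) and 17 lower (30.2%), of which 14 were higher (25.4%) and 15 lower (22.9%) in both ranges. In mOPr, 18 of 76 were higher (37.5%) and 12 lower (30.8%), with 11 higher (24.6%) and 9 lower (22.7%) in both ranges. Medians were 0.03 in OPr and 0.05 in mOPr, against 0.14 and 0.11 for all genes. The log2 ratio of the edgeR TMM factors of old over young was 0.15 in OPr and 0.13 in mOPr, which lowers the log2 ratios of sums by that much, and with these factors the medians became −0.11 and −0.08. Median-of-ratios factors differed by 0.16 and 0.17 there and by −0.11 in MSC-S. Without the 8 cells carrying hematopoietic markers 10 members were lower in OPr, where 27.8% of all genes were lower, and without the run of 3 cells 31 were lower and 11 higher, where 34.6% of all genes were lower and 36% higher.

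Complex I oxidises NADH. Its summed level in MSC-L was 2107 CPM in young and 1745 CPM in old cells, a log2 ratio of −0.27 with −0.22 in range 1 and −0.30 in range 2. In mOPr it was 1523 CPM in young and 1888 CPM in old cells, but the log2 ratio of 0.31 was made of −0.13 in range 1 and 0.63 in range 2. In SEC it was 2248 and 2065 CPM, and in the other populations the log2 ratio lay between −0.05 and 0.11. The value of 0.11 was that of OPr, where it was −0.0766 without the top cell per age. The run standard deviation of the complex was 0.15 in MSC-L, 0.22 in mOPr, 0.05 in SEC and 0.37 in OPr.

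Among complex I members in MSC-L, the accessory subunit Ndufa1 was at 46.5 CPM in young cells (runs 23.6, 82.02 and 44.6 CPM) and 14.8 CPM in old cells (runs 21.8, 15.3 and 5.2 CPM). The runs did not overlap, and the log2 ratio was −1.59, but it was −0.11 in range 1 and −2.34 in range 2. Ndufb9, an accessory subunit of the membrane arm, was at 159 CPM in young cells (runs 196, 52.8 and 195 CPM) and 78.8 CPM in old cells (runs 59.8, 78.3 and 103.7 CPM), and its runs overlapped. Ndufs3, a core subunit of the peripheral arm, was at 60.03 CPM in young cells (runs 63.8, 42.5 and 68.0 CPM) and 30.4 CPM in old cells (runs 27.8, 26.9 and 38.2 CPM), with every old run below every young run. Ndufs7, which carries the last iron-sulfur cluster before ubiquinone, was at 108.7 CPM in young cells (runs 99.5, 97.2 and 124.8 CPM) and 63.96 CPM in old cells (runs 58.2, 53.6 and 85.0 CPM), again without overlap, and its log2 ratio was −0.76 in range 1 and −0.75 in range 2. Ndufa5 went the other way, at 40.1 CPM in young (runs 17.7, 60.3 and 47.7 CPM) and 58.8 CPM in old cells (runs 24.01, 39.1 and 129 CPM). The runs overlapped, and without the old run at 129 CPM its log2 ratio of 0.54 became −0.33.

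In SEC, Ndufc2, an accessory membrane arm subunit, was at 198.8 CPM in young cells (runs 169.7, 206 and 222 CPM) and 104 CPM in old cells (runs 133, 90.2 and 85.9 CPM), a log2 ratio of −0.93 without overlap of runs. Ndufv1 was at 105 CPM in young SEC (runs 99.5, 86.9 and 129.6 CPM) and 187 CPM in old SEC (runs 235, 144 and 175 CPM), also without overlap, in the opposite direction. Ndufa10 was at 92.7 and 44.2 CPM with overlapping runs, and the core subunit Ndufs8 at 90.4 and 132 CPM, its young runs from 74.9 to 119 CPM and its old runs from 124 to 147 CPM. Of the 35 complex I members in SEC, 3 were higher and 4 lower past the fold, where 26.3% of all genes were higher and 18.9% lower.

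In OPr, Ndufa13 was at 107 CPM in young cells (runs 117, 109 and 85.7 CPM) and 48.9 CPM in old cells (runs 45.3 and 37.3 CPM), detected in 90.9% of young and 58.6% of old cells. Ndufa8 was at 38.6 CPM in young cells (runs 49.1, 29.6 and 31.97 CPM) and 102 CPM in old cells (runs 142 and 66.2 CPM), and 1 old cell held 28.2% of the old counts. Neither gene's runs of at least 5 cells overlapped, and among cells in clusters of their own identity the log2 ratios of −1.12 and 1.38 became −0.68 and 0.69, while within M5, with 14 young and 15 old cells, they were −1.54 and 2.84. In mOPr, Ndufb5 was at 39.8 CPM in young (runs 62.98 and 21.2 CPM) and 99.1 CPM in old cells (runs 100.7 and 98.1 CPM), and Ndufs7 at 68.3 CPM (runs 65.7 and 82.2 CPM) and 138 CPM (runs 121 and 148 CPM), both without overlap, and among cells in clusters of their own identity the log2 ratio of Ndufs7 was 1.52 in place of 1.01 (1.63 within M5). Ndufb8 was at 42.7 and 73.8 CPM in mOPr, but its log2 ratio of 0.77 became −0.38 among cells in clusters of their own identity and 3.02 within M5. In MSC-S, Ndufb3 was at 26.4 CPM in young and 15.3 CPM in old cells with overlapping runs, while Ndufb10 was at 68.6 CPM (runs 63.2, 65.9 and 77.8 CPM) and 100.1 CPM (runs 78.04, 84.9 and 128.6 CPM). Its runs did not overlap, but the log2 ratio of 0.54 became 0.26 without the old run at 128.6 CPM, 0.28 among cells in clusters of their own identity and 0.37 without the top cell per age. In AEC, Ndufb8 was at 87.5 and 58.7 CPM (log2 ratio −0.57) and Ndufa11 at 30.5 and 45.3 CPM (0.55). The rule that named them required the same direction in all 3 ranges, and Ndufa11 had a log2 ratio of 0.07 in range 1. Among cells of the arteriolar clusters the log2 ratios were −0.95 and 0.95.

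Complex II, succinate dehydrogenase, feeds electrons from the tricarboxylic acid cycle. Its 4 genes summed to 426 CPM in young and 274 CPM in old mOPr, a log2 ratio of −0.64, with −0.94 in range 1 and −0.29 in range 2. In OPr they summed to 368 and 503 CPM, a log2 ratio of 0.45, with 0.41 and 0.48 in the ranges. The run standard deviation of the complex was 0.20 in mOPr, 0.295 in OPr and 0.34 in AEC. The membrane anchor Sdhd was at 150 CPM in young mOPr (runs 169.6 and 145 CPM) and 52.5 CPM in old mOPr (runs 79.1 and 36.02 CPM), detected in 80.8% and 34.6% of cells, and the runs did not overlap. The iron-sulfur subunit Sdhb was at 91.8 and 36.8 CPM there, but the young run of 15 cells at 152.8 CPM carried the difference, and without it the log2 ratio of −1.30 became 0.03. Among cells in clusters of their own identity it was −2.05, and within M5 −1.65. In AEC, the complex summed to 477 and 410 CPM, and its log2 ratio was −0.17, 0.02 and −0.88 in ranges 1, 2 and 3. Sdha followed it, at 259 CPM in young and 193 CPM in old AEC, with −1.26 in range 3.

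Complex III passes electrons from ubiquinol to cytochrome c. Its summed level was 723 CPM in young and 502 CPM in old mOPr (log2 ratio −0.53, with −0.19 and −0.78 in the ranges, run standard deviation 0.32). In MSC-S it was 592 and 511 CPM (−0.21, with −0.29 and −0.18, run standard deviation 0.09). In MSC-L it was 516 and 580 CPM, with log2 ratios of −0.06 in range 1 and 0.32 in range 2 and a run standard deviation of 0.27. Gene by gene, 0 of the 8 members were higher there (background 27.6%) and 2 lower (25.3%) past the fold, with a median of −0.0047. The old cell with 11874 CPM of Uqcrc1 held 23.5% of the old counts of that gene, and without the top cell per age the log2 ratio of the complex was 0.0153 in place of 0.17. Uqcrc2, a core protein, was at 86.7 CPM in young MSC-L (runs 120, 87.7 and 54.9 CPM) and 121 CPM in old MSC-L (runs 167, 102 and 87.2 CPM), with overlapping runs. In AEC, the small subunit Uqcrb was at 17.4 CPM in young cells (runs 15.8, 16.1, 21.7 and 15.8 CPM) and 26.6 CPM in old cells (runs 37.2, 20.1, 24.7 and 24.5 CPM). The Rieske iron-sulfur protein Uqcrfs1 was at 73.6 and 54.4 CPM in AEC. It was lower in all 3 ranges (−0.66, −0.32 and −0.37), as the rule for named decreases required. Its log2 ratio was 0.03 among cells of the 2 arteriolar clusters.

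Complex IV, cytochrome c oxidase, reduces oxygen. It summed to 1039 CPM in young and 812 CPM in old MSC-L. The log2 ratio was −0.36 against a run standard deviation of 0.26, but −0.01 in range 1 and −0.53 in range 2. In SEC it summed to 1270 CPM in young and 1086 CPM in old cells, a log2 ratio of −0.23 against a run standard deviation of 0.07. Cox5a, a subunit on the matrix side, was at 30.7 CPM in young SEC (runs 34.5, 25.5 and 32.4 CPM) and 19.7 CPM in old SEC (runs 15.9, 28.7 and 15.4 CPM), with overlapping runs. Ndufa4, assigned to this complex, was at 42.8 CPM in young MSC-S (runs 42.4, 43.9 and 42.2 CPM) and 29.1 CPM in old MSC-S (runs 34.9, 22.4 and 31.6 CPM), without overlap. In AEC the complex was at 1345 and 1283 CPM, with log2 ratios of −0.12, 0.07 and −0.41 in ranges 1, 2 and 3 and a run standard deviation of 0.22. In OPr the log2 ratio was −0.0354, and −0.26 without the top cell per age, against a run standard deviation of 0.27.

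Complex V makes ATP. It summed to 2066 CPM in young and 1757 CPM in old MSC-L (log2 ratio −0.23, with −0.10 and −0.31 in the ranges, run standard deviation 0.10). In MSC-S it summed to 1940 and 1745 CPM (−0.15, with −0.00 and −0.22, run standard deviation 0.12). Elsewhere the log2 ratio lay between −0.15 and −0.06, but in OPr the value of −0.0775 became −0.36 without the top cell per age, and the old runs stood at 1689 and 1008 CPM, with 5106 CPM in the run of 3 cells. The stalk subunit Atp5h was at 41.1 CPM in young MSC-L (runs 33.6, 49.4 and 42.6 CPM) and 20.5 CPM in old MSC-L (runs 21.2, 13.2 and 29.3 CPM), a log2 ratio of −0.97 with no overlap of runs. Atp5c1, the rotating γ subunit, was at 93.8 CPM in young MSC-L (runs 68.96, 125 and 96.4 CPM) and 137 CPM in old MSC-L (runs 153.7, 98.4 and 165.6 CPM), and the runs overlapped. Atp5sl is counted with this complex by its symbol only, is not a core ATP synthase subunit and is named Dmac2 in the annotation used for exon lengths. Chosen after its values were seen, it was at 20.7 CPM in young and 1.13 CPM in old MSC-L, but in young cells 1 cell held 49.04% of its counts. Atp5b was at 717 CPM in young MSC-S (runs 687, 785 and 678 CPM) and 518 CPM in old MSC-S (runs 509, 527 and 516 CPM), with every old run below every young run. Elsewhere its young and old levels were closer, at 759 and 751 CPM in AEC and 648 and 646 CPM in mOPr.

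**Figure D2:**
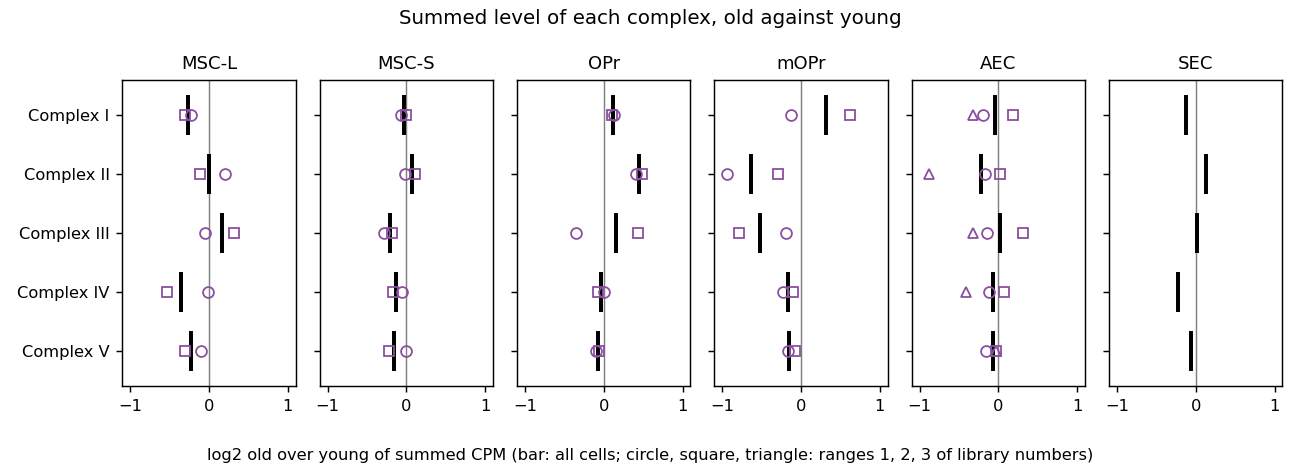
Log2 ratio of old over young for the summed CPM of each complex in the 6 populations; black bars are all cells and open circles, squares and triangles are ranges 1, 2 and 3 of library numbers. Complex I in mOPr runs from −0.13 to 0.63 between ranges, and complex II in OPr lies at 0.41 and 0.48.

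Of the members tested, Cox4i2 and Ndufa4l2, alternative isoforms of complex IV, had the lowest log2 ratios in OPr, and Ndufa4l2 had the lowest in mOPr. Ndufa4l2 is a paralogue of Ndufa4 known to be induced by low oxygen, and Cox4i2 is the alternative form of Cox4i1, also known for a role in oxygen sensing. Ndufa4l2 lies at chr10:127514967-127517154 on the plus strand and Cox4i2 at chr2:152754173-152765037 on the plus strand (GRCm38). In young OPr, Ndufa4l2 was at 65.7 CPM (runs 86.6, 80.7 and 1.1 CPM) and in old OPr at 10.9 CPM (runs 1.6 and 13.0 CPM). The log2 ratio was −2.48, with −5.06 in range 1 and −1.47 in range 2, and the runs overlapped because 1 young run was near 0. In young mOPr it was at 89.0 CPM (runs 60.97 and 129 CPM) and in old mOPr at 14.7 CPM (runs 21.8 and 10.2 CPM), a log2 ratio of −2.52 without overlap. As a share of Ndufa4 and Ndufa4l2 counts, it went from 63.5% (exact 95% interval 61.7 to 65.2%) to 24.7% (21.9 to 27.5%) in OPr and from 76.99% (74.9 to 78.98%) to 29.5% (25.9 to 33.2%) in mOPr. MSC-S kept a high share at both ages, 60.2% in young and 64.1% in old cells. It was 6.77% and 1.97% in MSC-L, 18.7% and 13.4% in AEC, and 0.111% and 2.59% in SEC. In young OPr 1 cell held 38.7% of the Ndufa4l2 counts. The gene was detected in 43.2% of young OPr, 53.8% of young mOPr and 27 of 59 young MSC-S cells.

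Cox4i2 made up 16.1% of Cox4i1 and Cox4i2 counts in young OPr (15.3 to 16.8%, in 22 of 44 cells) and 1.01% in old OPr (0.793 to 1.28%, in 3 of 29 cells). Its level was 53.05 CPM in young OPr (runs 23.9, 86.0 and 59.3 CPM) and 3.3 CPM in old OPr (runs 1.2 and 5.8 CPM), with every old run below every young run. The log2 ratio was −3.64, with −3.53 and −3.73 in the ranges, −3.21 among cells in clusters of their own identity and −3.33 without the cells with hematopoietic markers. By deposited cluster, 15 young OPr cells of M3 carried 68.7 CPM, 14 of M5 carried 69.8 CPM and 5 of M15, which held no old OPr, carried 73.6 CPM, while 15 old OPr cells of M5 carried 0.110 CPM and M3 held 1 old cell. In M4, 7 young cells carried 18.4 CPM and 3 old cells 30.8 CPM, the latter all in 1 cell. In the other groups its share was at most 3.36%, the value of young MSC-S, where 1 cell held 72.2% of its counts. Young SEC had 0 of 12369 counts, and the upper end of the exact interval was 0.0298%. A level of 3 counts there would be a share of 0.0243%. For Ndufa4l2 in OPr, the log2 ratio among cells in clusters of their own identity was −0.95 against −2.48 in all cells, and in mOPr it was −1.99. In young OPr, Ndufa4l2 was at 247 CPM in M15, 107 CPM in M4, 18.5 CPM in M3 and 3.55 CPM in M5, and in old OPr at 54.99 CPM in M4, at 149 CPM in the 1 cell of M3 and at 0 in M5. The young mOPr of M12 and of M15, clusters without old mOPr, carried 234 and 134 CPM of it. Within M5 it was at 36.4 CPM in 7 young and 22.8 CPM in 12 old mOPr, a log2 ratio of −0.65.

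In AEC, both isoforms lay in few cells. The 9 young and 4 old AEC that carried at least 3 of 8 pericyte markers at 10 CPM or more (a split chosen after the values were seen, with 3 young and 0 old of these cells at exactly 3 markers) held 136 and 202 CPM of Ndufa4l2, against 0.129 and 0.331 CPM in the other AEC. For Cox4i2 the levels were 54.5 and 168 CPM against 0.387 and 3.28 CPM. In young OPr and young mOPr, 1 cell each carried at least 3 such markers and held 0 CPM of both isoforms, against 66.5 and 92.04 CPM of Ndufa4l2 in the other cells. In old mOPr, 2 such cells held 51.1 CPM of Ndufa4l2 and the other 24 held 9.51 CPM. Among young SEC, 15 such cells (14 of them at exactly 3 markers) held 0 CPM of Cox4i2 and 0.388 CPM of Ndufa4l2. The 10 such old SEC held 26.4 and 13.9 CPM, against 0.225 and 0 CPM in the other old SEC. The 6 such young MSC-L held 0 and 11.3 CPM, against 8.86 and 5.97 CPM in the others. The pericyte markers summed to 779 CPM in young and 1883 CPM in old OPr (Cspg4 the most abundant in young, Acta2 in old, with Kcnj8 at 0 in young and Higd1b at 0 in old) and to 526 and 1847 CPM in mOPr (led by the same genes, with Rgs5 and Higd1b at 0 in young and Higd1b in old). In range 1 these sums were lower in old cells, at 651 and 341 CPM in OPr and 529.5 and 473 CPM in mOPr, and in range 2 higher, at 879 and 2924 CPM in OPr and 522 and 2696 CPM in mOPr. The part of these cells was not tested further.

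**Figure D3:**
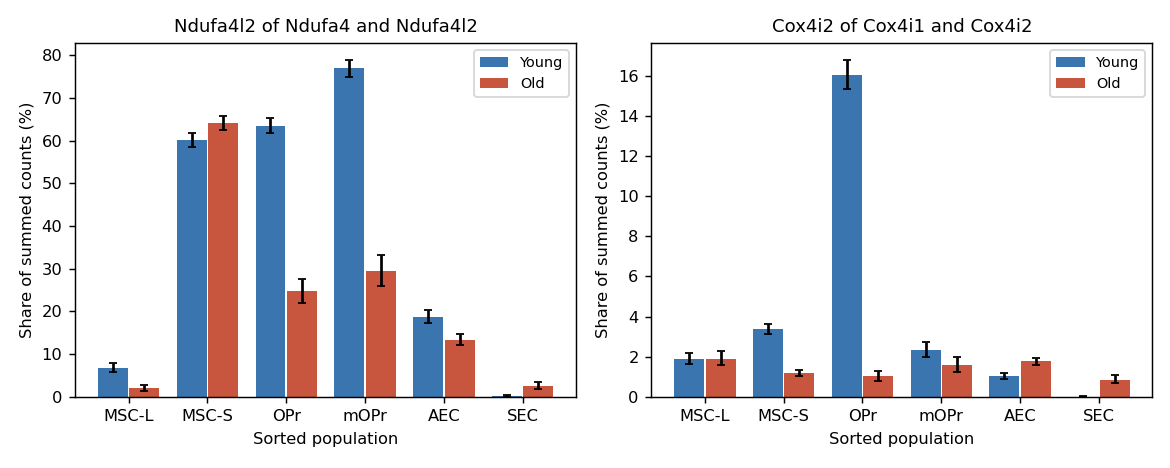
Share of Ndufa4l2 in the counts of Ndufa4 and Ndufa4l2 (left) and of Cox4i2 in those of Cox4i1 and Cox4i2 (right), in percent, for young (blue) and old (red) cells of each population; error bars are exact 95% binomial intervals for counting error only. Cox4i2 stands at 16.1% in young OPr and 1.01% in old OPr.

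The other tissue isoforms lay in few cells. The muscle forms Cox6a2 and Cox8b had 1 and 44 counts over all cells, in 1 and 2 cells, and Cox7b2 and Cox8c had 9 and 1 counts. Cox6b2, known as the testis form, made up 12.3% of Cox6b1 and Cox6b2 counts in young MSC-L (182 of 1484 counts, in 9 cells) and 7.27% in old MSC-L (80 of 1101, in 8 cells). Cox7a1, the heart and muscle form, reached 8.66% of Cox7a1 and Cox7a2 counts in old OPr, where 1 cell held 85.0% of its counts. Of the 3 genes that encode the same mature ring subunit of complex V, Atp5g3 held between 88.8% and 96.3% of counts in every group, Atp5g1 between 3.43% and 9.95%, and Atp5g2 at most 1.22%.

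The other genes of the pathway did not follow the members in every population. In MSC-L, 8 of 17 genes of the tricarboxylic acid cycle were lower past the fold (background 25.3%) and 1 higher (27.6%), with a median of −0.49, and their summed level was 1587 CPM in young and 1298 CPM in old cells. In SEC, 6 of the 17 were higher (background 26.3%) and 3 lower (18.9%), with a median of 0.29. Of 16 tested glycolysis genes 5 were higher and 0 lower, against the same background, with 1469 CPM in young and 1898 CPM in old cells for the glycolysis list. In OPr the glycolysis list was at 2538 and 1956 CPM, with log2 ratios of −0.60 and −0.27 in ranges 1 and 2, and 2 of 17 genes were higher (background 38.4%) and 7 lower (30.2%). In mOPr it was at 2281 and 1582 CPM, with −0.12 and −0.84 in the ranges, and 4 of 15 were higher (37.5%) and 7 lower (30.8%). Of 16 glycolysis genes, 1 was higher (background 19.8%) and 0 lower (24.2%) in MSC-S, 3 were higher (21.1%) and 1 lower (24.6%) in AEC, and 2 were higher (27.6%) and 3 lower (25.3%) in MSC-L, where the log2 ratio of the sum was 0.12 in range 1 and −0.28 in range 2. Assembly factors, which build the complexes, were past the fold in both directions in every population, with 7 higher and 9 lower of 40 in MSC-L (background 27.6% and 25.3%) and 15 higher and 13 lower of 40 in OPr (38.4% and 30.2%). Regulators of mitochondrial biogenesis had 6 of 14 higher and 3 lower in MSC-L (27.6% and 25.3%). They had 7 of 14 higher and 2 lower in OPr (38.4% and 30.2%), and 4 of 13 higher and 7 lower in mOPr (37.5% and 30.8%). The tricarboxylic acid cycle list in OPr was at 1126 CPM in young and 1546 CPM in old cells, with log2 ratios of 0.27 and 0.62 in ranges 1 and 2. Of its 17 genes 6 were higher (38.4%) and 2 lower (30.2%). The other nuclear subunits and carriers, with Ndufab1, Cyc1 and Cycs among them, had medians between −0.14 and 0.24. Cytosolic ribosomal proteins, short and abundant like the members, had medians of −0.14 in MSC-L, −0.03 in MSC-S, −0.23 in OPr, −0.19 in mOPr, −0.07 in AEC and −0.21 in SEC. The log2 ratios of their sums were −0.28 in MSC-L, −0.02 in MSC-S, −0.15 in OPr, −0.29 in mOPr, 0.01 in AEC and −0.19 in SEC. By range they were −0.95 and 0.25 in OPr and 0.17, 0.03 and −0.32 in AEC.

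Promoters of 66 members (71 RefSeq windows on GRCm38.p6, 250 bases before to 50 after the start) were searched on both strands for 3 short motifs of factors known to act on these genes. The NRF1 core GCATGCGC was in 14.1% of member windows and 2.71% of all 32851 windows, the ETS core CCGGAAG in 22.5% and 8.86%, and the YY1 core AAGATGGC in 12.7% and 2.75%. Any of the 3 was in 40.8% of member windows and 13.3% of all. Of the 18 members lower in both ranges in old MSC-L, 12 had windows, and 8 of their 13 windows held a motif. The 150 bases upstream of the start are shown for the 4 of these genes with a match there, with matches in capitals; in Atp5k the motif overlaps its own reverse complement. A match is a description of letters and does not show that a factor binds.
Ndufs3, chr2:90904722-90904871, minus strand: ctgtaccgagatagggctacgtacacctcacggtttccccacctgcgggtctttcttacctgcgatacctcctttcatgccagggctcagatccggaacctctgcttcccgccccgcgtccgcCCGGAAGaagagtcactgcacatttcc
Atp5k, chr5:108434400-108434549, minus strand: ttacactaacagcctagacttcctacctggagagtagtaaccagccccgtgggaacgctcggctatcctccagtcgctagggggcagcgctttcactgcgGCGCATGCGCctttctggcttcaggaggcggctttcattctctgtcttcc
Atp5h, chr11:115419920-115420069, minus strand: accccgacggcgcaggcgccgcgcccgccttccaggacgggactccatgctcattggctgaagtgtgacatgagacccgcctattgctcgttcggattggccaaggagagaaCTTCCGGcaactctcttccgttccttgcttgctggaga
Atp5j, chr16:84834977-84835126, minus strand: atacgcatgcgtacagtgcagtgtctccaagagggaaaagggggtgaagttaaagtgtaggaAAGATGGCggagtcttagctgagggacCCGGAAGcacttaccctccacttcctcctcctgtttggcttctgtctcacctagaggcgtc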

How the data were processed

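Libraries were made from single cells by full-length reverse transcription, amplification and tagmentation. The authors aligned reads with GSNAP to GRCm38.p4 and deposited raw HTSeq counts per gene, with no length or depth normalization; strand was not marked. Rows with the same symbol were added. Members and gene lists were chosen with earlier results of these data known. Counts were summed per age and population and given as counts per 1e+06 nuclear counts (CPM); log2 ratios used CPM plus 1. Named genes were the 10 most abundant members, the 3 largest increases and decreases per population (at least 1000 counts, in 25% of cells of one age, the same way in every range), tissue isoforms and core subunits; 1 gene that the rule names is not reported here, and it stays in sums, medians and counts. Alternatives were edgeR 4.0.16 TMM and median-of-ratios factors, means over cells, thinning, other filters, pseudocounts and cell subsets. Intervals were exact (95%). Exon lengths came from GENCODE M21. The log2 step was tested on simulated data. Python 3.11.15 and R 4.3.3 were used.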

Additional observations from a re-analysis of the deposited data

Results flagged for a closer look

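Several members lay past the fold in opposite directions in different populations, the same way in every range of each. These members were found by a search for this pattern, and how many of all genes show it was not counted. The differences between populations were not tested, and many genes were past the fold in both osteoprogenitor populations. Of all genes, 25.4% were higher and 22.9% lower past the fold in both ranges in OPr. In mOPr the shares were 24.6% and 22.7%. Atp5h had a log2 ratio of old over young of −0.97 in MSC-L and 0.73 in OPr. Cox6c had −0.61 in MSC-L and 0.64 in OPr. Ndufs7 had −0.76 in MSC-L, 0.83 in OPr and 1.01 in mOPr. Ndufa5 had 0.54 in MSC-L, or −0.33 without 1 old run, and −0.60 in OPr. Ndufb10 had 0.54 in MSC-S, or 0.26 without 1 old run, 0.57 in OPr and −1.04 in mOPr. Ndufa11 had −0.91 in OPr and 0.55 in AEC. Ndufb8 had 0.77 in mOPr and −0.57 in AEC, but −0.38 in mOPr among cells in clusters of their own identity. The complex II genes Sdhb and Sdhd had 0.66 and 0.90 in OPr and −1.30 and −1.50 in mOPr, where Sdhb had 0.0303 without 1 young run. A run of 3 old OPr cells had a summed member level of 14617 CPM against 5126 and 3406 CPM in the other old runs. Without it the log2 ratios in OPr were 0.60 for Atp5h, 0.54 for Cox6c, 0.55 for Ndufs7, −1.04 for Ndufa5, 0.42 for Ndufb10, −1.32 for Ndufa11, 0.61 for Sdhb and 0.94 for Sdhd.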

How the results depend on the processing

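The labels pair no samples between ages. No paired analysis was possible because each age of a population was 1 sample and the results come from no test. Values below are log2 ratios of old over young unless named as counts; the cause of each move was not tested. Of the alternative values of the median over members, 90 stayed within 1 standard deviation between runs and 14 did not; for summed members 78 did and 23 did not, and 3 more, in mOPr, took the other sign. Sums of OPr, AEC and MSC-S whose size was within that spread also took the other sign under some alternatives.
By range of library numbers, the median was −0.0843 in MSC-L (range 1), −0.32 and 0.21 in mOPr (ranges 1 and 2) and −0.41 in AEC (range 3), and the sum −0.10 in MSC-L (range 1), −0.22 and 0.0519 in mOPr, and −0.28 in AEC (range 3). Old SEC over old AEC was 0.14 in range 3. For complexes, range 1 gave −0.0119 for IV and −0.10 for V in MSC-L, −0.00 (−0.0026) for V in MSC-S, −0.35 for III in OPr, and −0.13, −0.94, −0.19 and −0.23 for I to IV in mOPr. Range 2 gave 0.43 for III in OPr, 0.63, −0.29 and −0.10 for I, II and IV in mOPr, and 0.18 for I in AEC. Range 3 gave −0.33, −0.88, −0.32 and −0.41 for I to IV in AEC.
With TMM factors the sum was −0.21 in mOPr and −0.18 in SEC, and the median −0.23 in SEC. With median-of-ratios factors the median was −0.02 (−0.0187) in MSC-S, −0.12 in mOPr and −0.22 in SEC, and the sum 0.01 (0.0078) in MSC-S, −0.25 in mOPr and −0.17 in SEC. Thinning gave sums of −0.32 in MSC-L and −0.13 in mOPr; means over cells gave −0.12 in mOPr. In clusters of their own identity the sum was 0.0360 in mOPr and −0.0358 in SEC, and it was −0.14 in mOPr with the top cell per age left out. Leaving out 1 run of at least 5 cells at a time gave medians from −0.24 to −0.0832 in MSC-L, −0.01 (−0.0072) to 0.41 in OPr, −0.0742 to 0.29 in mOPr and −0.17 to −0.0828 in SEC, and sums from −0.01 (−0.0139) to 0.48 in OPr and −0.10 to 0.0423 in mOPr. The old OPr run of 16 cells gave the highest values there. Alternatives added after seeing the data took single deposited clusters with at least 5 cells of both ages, which gave sums of −0.23, 0.0716 and 0.14 in MSC-S (M16, M5 and M7), −0.0477 in mOPr (M5), −0.29 in AEC (E5) and −0.0358 in SEC (E7), and left out the top cell per age for complexes, which gave −0.17 for III in OPr and −0.26 for IV in mOPr. Without runs of fewer than 5 cells, added after seeing the data, the median was −0.28 in OPr and the sum −0.29 in OPr and −0.20 in mOPr.
Counts of members past the fold under alternatives added after seeing the data moved by over 1.5 times as follows. With TMM, higher members were 2 in MSC-L, 5 in MSC-S, 7 in AEC and 2 in SEC (main 4, 3, 4 and 4), and 19 were lower in mOPr (main 12). The share of all genes past the fold was not counted with TMM, so these counts have no background beside them. Thinning gave 6 higher and 11 lower in MSC-S (main 3 and 6), again without a share counted over all genes. Without the highest cells 2 were higher in MSC-L (main 4), where 27.2% of all genes were higher (main 27.6%). Own clusters gave 28 higher in mOPr (main 18) and 10 in AEC (main 4), where 32.4% and 24.3% of all genes were higher (main 37.5% and 21.1%). In OPr, 10 were lower without cells with hematopoietic markers, and 11 higher and 31 lower without small runs (main 18 and 17). Of named genes, Ndufa5 in MSC-L ranged from −0.33 to 0.94 as 1 run was left out, with the lowest value without the third old run. Ndufb8 in mOPr was −0.38 in own clusters (main 0.77). Ndufs4 in OPr was 0.99 in all cells, 0.71 and 1.05 in ranges 1 and 2 and 0.76 in own clusters, but −0.55 within M5. Sdhb in mOPr ranged from −1.74 to 0.0303, with the highest value without the first young run. Of the other values for named genes, 409 stayed within the spread between runs and 31 did not. Shares of Cox4i2 and Ndufa4l2 from means over cells stayed within that spread (Cox4i2 in young OPr 20.4%).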
